A study of Mus musculus with 9 samples.

Results

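Pulmonary surfactant is a film of phospholipid and protein that lowers surface tension in the alveoli. It is made by alveolar type 2 cells, cuboidal epithelial cells that assemble the lipids and the hydrophobic proteins SP-B and SP-C in lamellar bodies, release them into the airspace and renew the alveolar lining after damage. The collectins SP-A and SP-D, which type 2 cells also secrete, bind microbes and belong to innate defence.

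The genes described here are 10 genes of surfactant and of type 2 cells: the surfactant protein genes Sftpc, Sftpb, Sftpa1 and Sftpd, the lamellar body and lipid genes Abca3, Lamp3 and Lpcat1, the phosphate transporter gene Slc34a2, the protease gene Napsa and the transcription factor gene Nkx2-1. They were chosen by gene symbol, and each matched 1 of the 45706 rows of the deposited table. All 10 passed the filter on low values, which kept any gene that reached 1 TPM in 3 or more lungs and so left 13248 genes for testing. TPM, a transcript abundance corrected for length, is scaled to the same total in every lung.

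The lungs came from BALB/c females bearing flank tumours grown from the mammary carcinoma line 4T1, itself from mouse. The labels give an age of 4 to 6 weeks beside the tumour cell injection and no age at lung collection. The mice received nanocapsules of an antibody against PD1, the free antibody against PD1, or phosphate-buffered saline (PBS) on days 7 and 14 after engraftment, and lung RNA was taken on day 21, with 3 lungs in each group. PD1 is an inhibitory receptor of T cells, and the study asked about possible immune-related adverse events of its blockade in the lung. A dose of 150 µg per mouse is given beside the nanocapsules, and the dose of the free antibody is not clear from the labels. All groups carried tumours, so no lung without a tumour was compared. Animals are not named in the labels, only lung numbers, and the p-values therefore measure the spread between these samples, which may be technical.

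TPM keep no sequencing depth, so the depth behind each lung is unknown. A lung had from 12194 to 13407 genes at or above 1 TPM. The neutrophil genes S100a8 and S100a9 together took 15.5% to 17.5% of all TPM in the nanocapsule lungs, 10.3% to 11.95% in the anti-PD1 lungs and 12.1% to 16.7% in the PBS lungs, with the highest PBS value in PBS lung 2. In bulk tissue, fewer cells of a type and less RNA per cell cannot be told apart, and every level below is a share of the whole lung's RNA.

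Promoter sequences of 7 of the 10 genes were matched by symbol in the RefSeq promoter table of build GRCm38.p6. The 4 shown here stand for genes that behaved differently over the lungs: Sftpb, Sftpa1 and Lamp3 moved together, and Abca3 stayed level. Each is printed 5′ to 3′ on the gene's strand, up to the last base before the first annotated exon of the gene. Sftpb covers chr6:72304360-72304609 on the plus strand, Sftpa1 covers chr14:41131538-41131781 on the plus strand, Lamp3 covers chr16:19706376-19706615 on the minus strand and Abca3 covers chr17:24351773-24351949 on the plus strand. Capitals mark the letters CTCAAG or CAAGTG on either strand, forms of the core sequence that the NKX2 family of transcription factors, to which the Nkx2-1 product belongs, is known to bind.
Sftpb: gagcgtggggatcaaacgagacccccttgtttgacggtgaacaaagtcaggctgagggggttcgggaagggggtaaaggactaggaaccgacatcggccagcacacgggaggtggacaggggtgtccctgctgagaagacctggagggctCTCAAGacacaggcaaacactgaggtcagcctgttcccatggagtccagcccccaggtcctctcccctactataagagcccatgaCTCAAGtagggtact
Sftpa1: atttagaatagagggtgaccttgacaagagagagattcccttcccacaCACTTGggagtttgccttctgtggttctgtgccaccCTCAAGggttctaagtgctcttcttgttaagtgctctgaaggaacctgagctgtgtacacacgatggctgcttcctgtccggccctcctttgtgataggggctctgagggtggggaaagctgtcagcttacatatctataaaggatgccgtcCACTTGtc
Lamp3: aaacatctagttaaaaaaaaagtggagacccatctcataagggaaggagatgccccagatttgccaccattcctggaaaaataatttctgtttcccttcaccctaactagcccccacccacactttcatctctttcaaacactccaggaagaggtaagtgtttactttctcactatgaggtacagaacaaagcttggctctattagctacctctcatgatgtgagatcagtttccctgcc
Abca3: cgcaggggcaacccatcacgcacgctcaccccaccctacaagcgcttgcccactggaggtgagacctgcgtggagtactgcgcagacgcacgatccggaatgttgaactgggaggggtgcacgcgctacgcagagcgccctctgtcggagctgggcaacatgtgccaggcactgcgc

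In the 250 bases before the RefSeq start, CTCAAG or its reverse complement CTTGAG occurred at 2 places in Sftpb, from -100 to -95 and from -15 to -10, and at 1 place in Sftpa1, from -166 to -161. CAAGTG, read as CACTTG on the printed strand, occurred at 2 places in Sftpa1, from -202 to -197 and from -14 to -9. Neither hexamer overlapped the other, and neither was found in the windows of Abca3, Lamp3, Slc34a2, Lpcat1 or Nkx2-1. Over 32851 promoters of the same length, 13.3% held CTCAAG and 11.6% held CAAGTG on either strand. At 2 places or more, 0.998% held CTCAAG and 0.865% held CAAGTG. A match describes letters and not a binding site.

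The surfactant protein genes spanned a wide range between single lungs. Sftpc encodes SP-C, a short membrane-embedded peptide made from a larger precursor, and is the classic marker of type 2 cells. The gene occupies 70520949 to 70524081 of chromosome 14 in GRCm38. Its level was 3410, 629 and 914 TPM in nanocapsule lungs 1 to 3, 1480, 1256 and 3316 TPM in anti-PD1 lungs 1 to 3, and 804, 343 and 1021 TPM in PBS lungs 1 to 3. Nanocapsule lung 1 and anti-PD1 lung 3 stood apart from the other lungs of their groups at the high end, and PBS lung 2 was the lowest of the 9. The highest lung held 9.95 times the Sftpc of the lowest, and within the nanocapsule group alone the ratio was 5.43.

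Sftpb encodes SP-B, which is needed for lamellar bodies to form and for surfactant to spread. It lies on chromosome 6 from 72304610 to 72314371 and had 258, 47.0 and 82.2 TPM in nanocapsule lungs 1 to 3, 124, 134 and 251 TPM in anti-PD1 lungs 1 to 3, and 73.5, 38.2 and 92.3 TPM in PBS lungs 1 to 3. The same nanocapsule lung and the same anti-PD1 lung were highest, and PBS lung 2 was again lowest.

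The collectin genes lie near each other on chromosome 14, Sftpa1 from 41131782 to 41136452 and Sftpd from 41172214 to 41185149, on opposite strands. Sftpa1 had 372, 68.8 and 93.2 TPM in nanocapsule lungs 1 to 3, 157, 146 and 339 TPM in anti-PD1 lungs 1 to 3, and 98.5, 36.4 and 113 TPM in PBS lungs 1 to 3. Sftpd had 50.8, 11.2 and 15.2 TPM in nanocapsule lungs 1 to 3, 23.9, 22.4 and 46.2 TPM in anti-PD1 lungs 1 to 3, and 14.4, 6.89 and 18.2 TPM in PBS lungs 1 to 3. Sftpd placed the lungs in the order that Sftpc gave, and Sftpa1 in nearly that order. In both genes each anti-PD1 lung lay above each PBS lung while the nanocapsule lungs overlapped both other groups.

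The proportions among the surfactant protein genes were steadier than their levels. Summed, the 4 genes took 0.409%, 0.0756% and 0.110% of all TPM in nanocapsule lungs 1 to 3, 0.178%, 0.156% and 0.395% in anti-PD1 lungs 1 to 3, and 0.0991%, 0.0424% and 0.124% in PBS lungs 1 to 3, a span of 9.64 times. Sftpc made up between 80.6% and 83.9% of that sum in every lung. The ratio of Sftpc to Sftpa1 TPM stayed between 8.16 and 9.80, and that of Sftpc to Sftpb between 8.97 and 13.4. Among these ratios, the lowest Sftpc to Sftpb value and the lowest Sftpa1 to Sftpd value, 5.28 against a highest of 7.33, both came from PBS lung 2, the lung with the least of all 4 transcripts.

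**Figure D1:**
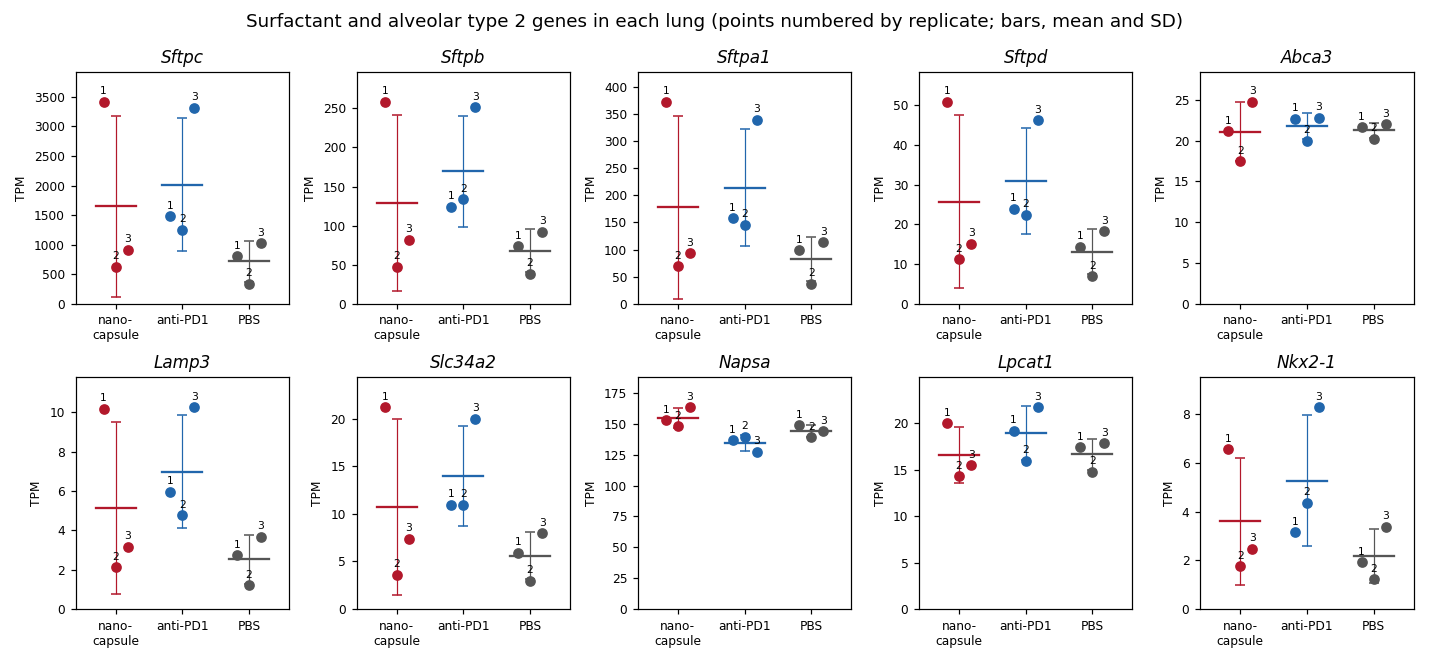
Levels of the 10 genes in TPM (vertical axis, linear, from 0) in each lung, with the nanocapsule, anti-PD1 and PBS groups from left to right. Points are lungs numbered by replicate, horizontal bars are group means and error bars are the SD of 3 lungs. In 7 genes nanocapsule lung 1 and anti-PD1 lung 3 are the highest points, while Abca3, Napsa and Lpcat1 vary by at most 1.52 times over the 9 lungs.

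Of the genes of the lamellar body and of lipid handling, Lamp3 varied as widely as the surfactant proteins, Lpcat1 followed them over a much narrower range and Abca3 did not follow them. Lamp3 encodes a membrane protein of lamellar bodies in type 2 cells and is also made by mature dendritic cells. Lamp3 lies on chromosome 16 from 19653378 to 19706375 and had 10.2, 2.12 and 3.17 TPM in nanocapsule lungs 1 to 3, 5.95, 4.77 and 10.2 TPM in anti-PD1 lungs 1 to 3, and 2.72, 1.20 and 3.68 TPM in PBS lungs 1 to 3. The lungs fell in the pattern seen for Sftpc, with the anti-PD1 lungs all above the PBS lungs.

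Abca3 encodes the transporter that loads phospholipid into lamellar bodies. It lies on chromosome 17 from 24351950 to 24410201 and had 21.1, 17.5 and 24.7 TPM in nanocapsule lungs 1 to 3, 22.7, 20.0 and 22.8 TPM in anti-PD1 lungs 1 to 3, and 21.6, 20.2 and 22.0 TPM in PBS lungs 1 to 3. All 3 groups overlapped, and PBS lung 2, lowest for Sftpc, held nearly the same Abca3 as the other PBS lungs. In the annotation the genes Gm25618 and D330041H03Rik overlap Abca3 on the opposite strand. Since strand-aware counting is not given in the sources used here, reads of the partners cannot be told apart.

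Lpcat1 encodes an acyltransferase that makes the dipalmitoyl phosphatidylcholine of surfactant. Lpcat1 lies on chromosome 13 from 73467197 to 73516422 and had 20.0, 14.3 and 15.5 TPM in nanocapsule lungs 1 to 3, 19.2, 15.9 and 21.7 TPM in anti-PD1 lungs 1 to 3, and 17.4, 14.8 and 17.9 TPM in PBS lungs 1 to 3. Its highest lungs were the same nanocapsule and anti-PD1 lungs as for Sftpc, but the highest value was 1.52 times the lowest, and the groups overlapped.

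Slc34a2, the gene of the sodium-phosphate cotransporter of the type 2 cell surface, lies on chromosome 5 from 53038081 to 53071664. It had 21.2, 3.59 and 7.39 TPM in nanocapsule lungs 1 to 3, 10.96, 10.95 and 20.0 TPM in anti-PD1 lungs 1 to 3, and 5.90, 2.99 and 7.97 TPM in PBS lungs 1 to 3. This was the Sftpc pattern once more, with each anti-PD1 lung above each PBS lung and nanocapsule lungs on both sides. The antisense gene Gm17182 overlaps it.

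Napsa encodes napsin A, an aspartic protease that takes part in processing the SP-B precursor. It lies on chromosome 7 from 44572380 to 44586862, overlapped by the antisense gene Gm15396, and had 153, 148 and 163 TPM in nanocapsule lungs 1 to 3, 137, 139 and 127 TPM in anti-PD1 lungs 1 to 3, and 149, 139 and 144 TPM in PBS lungs 1 to 3. It varied least of the 10 genes, 1.28 times from lowest to highest, and anti-PD1 lung 3, the second highest for Sftpc, was lowest for Napsa. Each nanocapsule lung lay above each anti-PD1 lung.

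Nkx2-1 encodes the homeodomain transcription factor of lung epithelium that binds surfactant gene promoters. It lies on chromosome 12 from 56531958 to 56536908, overlapped by the antisense gene Gm26973, and had 6.56, 1.75 and 2.49 TPM in nanocapsule lungs 1 to 3, 3.16, 4.38 and 8.29 TPM in anti-PD1 lungs 1 to 3, and 1.92, 1.22 and 3.38 TPM in PBS lungs 1 to 3. Its 2 highest lungs were those of Sftpc, and the anti-PD1 and PBS groups overlapped by 1 lung. Nkx2-1 had the lowest mean TPM of the 10 genes, and between 282 and 520 Sftpc transcripts were measured for each Nkx2-1 transcript.

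By mean TPM over the 9 lungs the order from high to low was Sftpc, Sftpa1, Napsa, Sftpb, Sftpd, Abca3, Lpcat1, Slc34a2, Lamp3 and Nkx2-1, with Sftpc at rank 104 of all rows of the table. Neighbours in the middle of that order were not separated by their spread. Sftpa1, Napsa and Sftpb exchanged places between lungs: in PBS lung 2 Napsa stood at 139 TPM, Sftpb at 38.2 TPM and Sftpa1 at 36.4 TPM, whereas in nanocapsule lung 1 Sftpa1 and Sftpb, at 372 and 258 TPM, lay above Napsa at 153 TPM.

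The 10 genes thus fell into 7 that spanned 6.75 to 10.2 times between lungs and 3, Abca3, Napsa and Lpcat1, that spanned 1.28 to 1.52 times. This division was made after the values were seen and is a description. Bulk RNA does not tell which cells made these transcripts, and cell sources other than type 2 cells were not tested for Abca3, Napsa and Lpcat1. In all 7 genes PBS lung 2 was lowest and nanocapsule lung 1 and anti-PD1 lung 3 were the highest pair. Lpcat1 followed the shape of the 7 on a small scale, with a median Pearson correlation of 0.87 to them across the 9 lungs, while the median was 0.36 for Abca3 and -0.24 for Napsa. Among the 7 genes the 21 pairwise correlations of log2(TPM + 1) lay between 0.955 and 0.998, and between 0.936 and 0.998 once each group was centred on its own mean. All these points share the same 9 libraries, and no test was made.

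**Figure D2:**
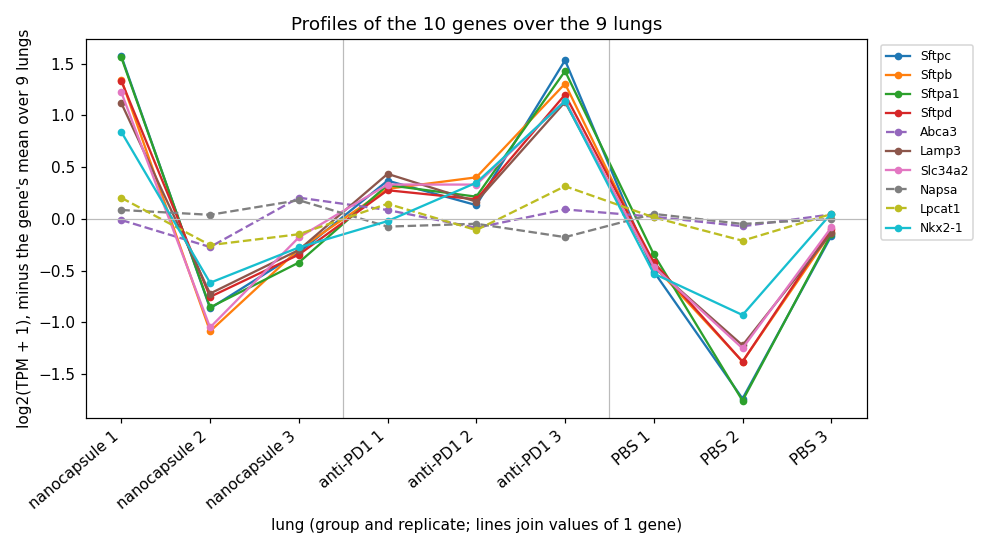
Level of each gene in each lung as log2(TPM + 1) minus that gene's mean over the 9 lungs (vertical axis), with lungs along the horizontal axis from nanocapsule through anti-PD1 to PBS. Solid lines are the 7 genes that spanned 6.75 to 10.2 times and dashed lines are Abca3, Napsa and Lpcat1, which stay near 0 in every lung.

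The first comparison asked how the surfactant genes of lungs given the free antibody stood against those of PBS lungs. Their means were higher for 9 of the 10 genes, against 56.9% of all tested genes, and none of the 10 passed the test. Sftpc averaged 2017 ± 1130 TPM after the free antibody and 723 ± 346 TPM after PBS (SD, n = 3 each), which is 1.48 apart on the log2(TPM + 1) scale (SE 0.62, 95% interval 0.09 to 2.87, limma adjusted p = 0.279). Sftpb averaged 170 ± 70.9 TPM after the free antibody and 68.0 ± 27.5 TPM after PBS (SD, n = 3 each), with a log2 difference at 1.32 (SE 0.55, limma adjusted p = 0.278). The other genes of the group of 7 had log2 differences of 1.41 for Sftpa1, 1.20 for Slc34a2, 1.19 for Sftpd, 1.18 for Lamp3 and 0.96 for Nkx2-1, with limma adjusted p between 0.257 and 0.295.

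In this comparison 0 of 10 genes were called at a limma adjusted p under 0.05, where 0.00755% of all tested genes were called. At an unadjusted p under 0.05, 7 of the 10 were higher and 0 lower, against 8.48% of all tested genes higher and 8.06% lower. In 6 genes every anti-PD1 lung lay above every PBS lung, a pattern seen in 12.1% of all tested genes, and Nkx2-1 missed it by anti-PD1 lung 1. Mitochondrial genes took 5.01% to 5.76% of all TPM in the anti-PD1 lungs and 2.37% to 4.38% in the PBS lungs, also with no overlap and with PBS lung 2 lowest of the PBS lungs, and the part of this share in the differences was not tested. Rescaled without mitochondrial, haemoglobin and immunoglobulin genes, the median log2 difference over the 10 genes was 1.23. Since the 7 genes moved as 1 profile over the lungs, these counts are not 7 separate observations. The median log2 difference over the 10 genes was 1.19, beside 0.04 over all tested genes. It was 0.84 without PBS lung 2 and 0.89 without anti-PD1 lung 3.

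The remaining 3 genes differed little between the anti-PD1 and PBS lungs. Abca3 had a log2 difference of 0.03 (95% interval -0.25 to 0.32), Lpcat1 one of 0.17 (95% interval -0.18 to 0.51) and Napsa one of -0.10 (95% interval -0.27 to 0.08), with limma adjusted p of 0.926, 0.616 and 0.555. The sign of the Abca3 difference turned with median-of-ratios scaling and without S100a8 and S100a9.

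The second comparison set the nanocapsule lungs against the PBS lungs. Here 8 of 10 genes had higher means, against 28.8% of all tested genes, and the differences rested on nanocapsule lung 1. Sftpc averaged 1651 ± 1530 TPM after nanocapsules and 723 ± 346 TPM after PBS (SD, n = 3 each), with a log2 difference at 0.93 (SE 0.62, 95% interval -0.46 to 2.32, limma adjusted p = 0.615). Sftpb averaged 129 ± 113 TPM after nanocapsules and 68.0 ± 27.5 TPM after PBS (SD, n = 3 each), with a log2 difference at 0.64 (SE 0.55, limma adjusted p = 0.697). The log2 differences of Sftpa1, Sftpd, Lamp3, Slc34a2 and Nkx2-1 were 0.84, 0.71, 0.64, 0.60 and 0.45.

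Without nanocapsule lung 1 the log2 difference was 0.21 for Sftpc, -0.04 for Sftpb, 0.10 for Lamp3 and 0.02 for Nkx2-1, and the median over the 10 genes was 0.05, against 0.62 with it. That median was 0.27 without PBS lung 2 and 1.07 without nanocapsule lung 2. Limma called 0 of the 10 genes, where 0.00755% of all tested genes were called, and 0 had an unadjusted p under 0.05, against 10.1% of all tested genes, of which 1.22% were higher and 8.92% lower. In none of the 10 genes were the nanocapsule lungs all above or all below the PBS lungs, where 2.4% of all tested genes lay wholly higher and 11.9% wholly lower. Abca3, Lpcat1 and Napsa had log2 differences of -0.02, -0.02 and 0.10 (95% intervals -0.31 to 0.26, -0.36 to 0.33 and -0.07 to 0.28). The signs for Abca3 and Lpcat1 turned with median-of-ratios scaling and without S100a8 and S100a9. Over all tested genes the median was -0.11.

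The encapsulated antibody was then compared directly with the free antibody. Means of 9 of the 10 genes were lower after nanocapsules, with no difference past the test, and 1 of 10, Napsa, had a higher mean, where 29.2% of all tested genes did. Sftpc averaged 1651 ± 1530 TPM after nanocapsules and 2017 ± 1130 TPM after the free antibody (SD, n = 3 each), with a log2 difference at -0.55 (SE 0.62, 95% interval -1.94 to 0.84, limma adjusted p = 0.568). Sftpb had the largest difference of the 10 genes, -0.68 (SE 0.55, limma adjusted p = 0.427), and the other 5 genes of its group had differences between -0.60 and -0.48.

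Napsa averaged 155 ± 7.82 TPM after nanocapsules and 134 ± 6.31 TPM after the free antibody (SD, n = 3 each), with a log2 difference at 0.20 (SE 0.08, 95% interval 0.03 to 0.38, limma adjusted p = 0.144). It was the 1 gene of the 10 with an unadjusted p under 0.05, which 27.7% of all tested genes reached and 6.69% as higher, and the 1 gene whose nanocapsule lungs all lay above the anti-PD1 lungs, which held for 8.73% of all tested genes, while 24.6% lay wholly lower. The log2 difference was -0.06 for Abca3 (95% interval -0.34 to 0.23) and -0.18 for Lpcat1 (95% interval -0.53 to 0.16). Limma called 0 of the 10 genes and 0.106% of all tested genes, 0.0679% as higher and 0.0377% as lower. The median log2 difference over the 10 genes was -0.53, beside -0.17 over all tested genes, and it was -1.10 without nanocapsule lung 1, -0.17 without anti-PD1 lung 3, -0.31 without nanocapsule lung 3 and -0.08 without nanocapsule lung 2. The PBS lungs served both comparisons with treated lungs, and the 3 comparisons share groups, so they are not separate evidence for one another.

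**Figure D3:**
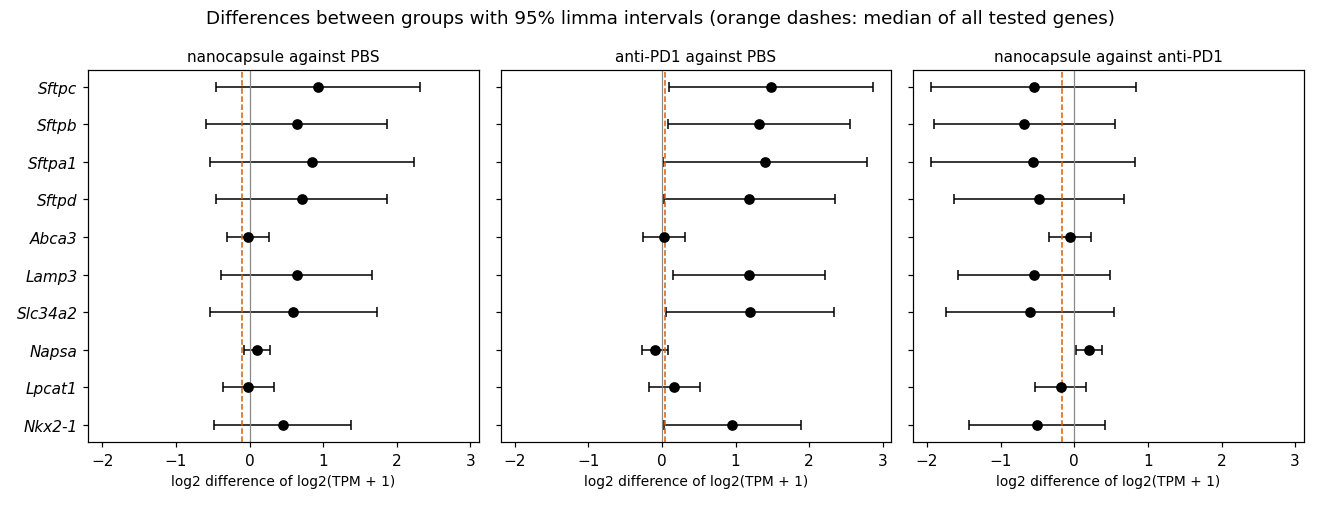
Log2 difference of log2(TPM + 1) for each gene (horizontal axis) in the 3 comparisons, with points for the limma estimate, bars for its 95% interval and an orange dashed line at the median of all tested genes. The intervals of the 7 widely varying genes are several times as wide as those of Abca3, Napsa and Lpcat1.

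Further markers of type 2 cells showed which transcripts kept company with the surfactant genes. Of 27 tested markers, 21 had higher means in the anti-PD1 than in the PBS lungs (median log2 difference 0.50), 18 in the nanocapsule than in the PBS lungs (median 0.15) and 8 in the nanocapsule than in the anti-PD1 lungs (median -0.38), and limma called 0 of them in each comparison. Unadjusted p under 0.05 were reached by 3 higher and 4 lower, by 1 higher and 2 lower, and by 4 higher and 2 lower. Over all tested genes the shares were 8.48% higher and 8.06% lower, 1.22% and 8.92%, and 6.69% and 21%. The same shares stand beside the counts of every list that follows. Cxcl15, a chemokine of lung epithelium, averaged 56.7 TPM in the nanocapsule, 64.0 TPM in the anti-PD1 and 25.6 TPM in the PBS lungs. Over the list, log2 differences ran from -0.48 to 1.33 in anti-PD1 against PBS lungs, from -0.55 to 0.94 in nanocapsule against PBS lungs and from -0.82 to 0.56 in nanocapsule against anti-PD1 lungs.

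The 4 most abundant genes of that list, Lyz2, Cd74, Chil1 and Ctsh, are also made by myeloid or lymphoid cells. Lyz2, a lysozyme gene, averaged 8737, 9078 and 8096 TPM in the nanocapsule, anti-PD1 and PBS lungs, and Cd74, the invariant chain of MHC class II, 1276, 2271 and 1870 TPM. Chil1, a chitinase-like protein, averaged 683, 462 and 651 TPM in the same groups, and Ctsh, a cathepsin that processes surfactant proteins, 205, 204 and 198 TPM. These genes did not share the surfactant profile, with Pearson correlations to the mean profile of the 7 genes between -0.67 for Chil1 and 0.44 for Cd74 over the 9 lungs.

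The tested genes whose log2(TPM + 1) was most like the mean profile of the 10 genes over the 9 lungs were, in order, Phldb2, Cxcl15, Baiap2l1, Aldh1a7, RP24-168A7.7, Lgi3, Ybx3, Atp6v1c2, Sfta2 and Mmp15, with Pearson correlations of 0.998 to 0.959. Cxcl15, Lgi3 and Sfta2 were also in the list of type 2 cell markers. Cxcl15 had 115, 20.3 and 34.7 TPM in nanocapsule lungs 1 to 3, 47.7, 45.5 and 98.7 TPM in anti-PD1 lungs 1 to 3, and 27.9, 12.1 and 36.9 TPM in PBS lungs 1 to 3, and placed the 9 lungs in the same order as the mean profile. Centred within each group, the 10 most alike were Cxcl15, Efnb2, Phldb2, Baiap2l1, Cox18, Tek, Gpd1l, Fmo2, Fam84b and Tspan12, of which Tek is an endothelial receptor gene. These genes were picked from 13248 for their likeness, so the size of the correlation is a description.

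Genes of the wider surfactant pathway had medians close to those of all tested genes. Of 26 tested genes of phospholipid synthesis, 14 had higher and 12 lower means in the anti-PD1 than in the PBS lungs (median log2 difference 0.02), 9 were higher and 17 lower in the nanocapsule than in the PBS lungs (median -0.07), and limma called 0 in the 3 comparisons, where 2, 2 and 2 were higher and 2, 4 and 5 lower at an unadjusted p under 0.05. Elovl1, a fatty acid elongase, averaged 139, 120 and 121 TPM in the nanocapsule, anti-PD1 and PBS lungs. Pnpla2, a triglyceride lipase, averaged 184, 173 and 207 TPM, Fabp5, a fatty acid binding protein, 66.1, 82.2 and 73.7 TPM, and Acly, the source of cytosolic acetyl-CoA, 66.4, 62.7 and 72.2 TPM in the same groups. Most of these genes serve every cell, and their index, the mean log2(TPM + 1) of the list, spanned -0.22 to 0.12 around its mean over the 9 lungs.

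Genes of surfactant processing, the lamellar body and secretion went both ways, with medians near 0. Of 22 tested, 10 had higher means in the anti-PD1 than in the PBS lungs, 8 in the nanocapsule than in the PBS lungs and 13 in the nanocapsule than in the anti-PD1 lungs, with medians of -0.05, -0.05 and 0.03, and their index stayed between -0.09 and 0.08 over the lungs. Single genes spread more widely, with log2 differences from -0.59 for Lyst to 1.42 for Adgrf5 in anti-PD1 against PBS lungs, from -0.42 to 0.19 in nanocapsule against PBS lungs and from -1.47 to 0.57 in nanocapsule against anti-PD1 lungs. Limma called 0, with 3 higher and 3 lower, 0 higher and 1 lower, and 4 higher and 4 lower at an unadjusted p under 0.05. Anxa2, an annexin that takes part in lamellar body fusion, averaged 1352, 1135 and 1219 TPM in the nanocapsule, anti-PD1 and PBS lungs, and its partner S100a10 averaged 341, 440 and 374 TPM. Vamp8, a vesicle fusion protein, averaged 268, 261 and 244 TPM.

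Among 15 tested transcription factors of type 2 cells, 8 had higher means in the anti-PD1 than in the PBS lungs, 7 in the nanocapsule than in the PBS lungs and 5 in the nanocapsule than in the anti-PD1 lungs (medians 0.05, -0.05 and -0.30). Limma called 0, and at an unadjusted p under 0.05 there were 3 higher and 4 lower, 1 higher and 1 lower, and 3 higher and 3 lower. The 4 most abundant, Cebpd at 411, 285 and 377 TPM in the nanocapsule, anti-PD1 and PBS lungs, Stat3 at 134, 128 and 162 TPM, Cebpa at 114, 150 and 113 TPM and Hopx at 94.7, 73.4 and 75.3 TPM, are also made by leukocytes or type 1 cells. Grhl1, Sox9 and Tfcp2l1 were below 1 TPM in every lung.

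Alveolar macrophages take up and break down used surfactant. Of 21 tested genes of that function and cell, 16 had higher means in the anti-PD1 than in the PBS lungs (median 0.35), 2 in the nanocapsule than in the PBS lungs (median -0.13) and 3 in the nanocapsule than in the anti-PD1 lungs (median -0.66). Limma called 0, with 6 higher and 1 lower, 0 higher and 2 lower, and 0 higher and 13 lower at an unadjusted p under 0.05. Over all tested genes the shares were 8.48% higher and 8.06% lower, 1.22% and 8.92%, and 6.69% and 21%. Ear2, a ribonuclease of alveolar macrophages, averaged 660, 1149 and 704 TPM in the nanocapsule, anti-PD1 and PBS lungs, Chil3 727, 1036 and 860 TPM, Plin2, a lipid droplet coat protein, 405, 540 and 457 TPM, and Csf2ra, a subunit of the GM-CSF receptor, 269, 271 and 281 TPM. Nanocapsule lung 1, the highest for Sftpc, had an index of -0.31 for this list, below the mean of the 9 lungs.

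Genes of regenerating type 2 cells differed little by their medians. Of 15 tested, 10 had higher means in the anti-PD1 than in the PBS lungs and 4 in each of the other comparisons (medians 0.07, -0.04 and -0.12). Limma called 0 of 15 in each, with 0, 0 and 2 higher and 1, 1 and 3 lower at an unadjusted p under 0.05. The most abundant, Lcn2 at 4025, 2168 and 3612 TPM in the nanocapsule, anti-PD1 and PBS lungs, is also a neutrophil gene and a member of the neutrophil list below, and Saa3 averaged 909, 524 and 786 TPM. Plaur, a urokinase receptor, averaged 337, 365 and 363 TPM, and Cdkn1a, a cell cycle inhibitor, 69.1, 92.8 and 100.98 TPM in the same groups.

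Several other lists followed the surfactant genes between lungs, by correlation of their index with the mean profile of the 7 genes. Over the 9 lungs it was 0.98 for the other type 2 markers, 0.90 for pan-epithelial, 0.88 for type 1 and 0.86 for cardiac muscle genes. Capillary endothelial genes had 0.84, haemoglobin genes 0.76, fibroblast and smooth muscle genes 0.75 and airway genes 0.71. Lower values were 0.69 for type 2 cell transcription factors, 0.57 for regenerating type 2 cell genes and 0.39 for phospholipid synthesis. B and T cell genes had 0.38, alveolar macrophage genes 0.36 and mammary carcinoma markers 0.18. The correlation was -0.14 for processing and secretion genes and -0.62 for neutrophil genes. An index weighs each gene of its list alike, and single genes can differ from it. Taken 1 by 1, the other type 2 markers correlated at -0.77 to 0.996 with the mean profile of the 7 genes. All lists share the same libraries, and their part in the differences was not tested. Of 16 tested markers of alveolar type 1 cells, the flat cells of gas exchange, 15 had higher means in the anti-PD1 than in the PBS lungs (median 0.53), 6 in the nanocapsule than in the PBS lungs and 1 in the nanocapsule than in the anti-PD1 lungs. Ager, the defining type 1 marker, averaged 26.5 ± 15.5 TPM in the nanocapsule, 40.8 ± 15.0 TPM in the anti-PD1 and 20.5 ± 6.00 TPM in the PBS lungs (SD, n = 3 each), Emp2 11.2, 34.1 and 10.8 TPM, and Vegfa 14.0, 15.7 and 15.7 TPM. Hopx is also in this list. Sftpc transcripts per Ager transcript numbered 77.2, 42.5 and 44.3 in nanocapsule lungs 1 to 3, 56.3, 31.5 and 58.9 in anti-PD1 lungs 1 to 3, and 47.2, 20.0 and 37.2 in PBS lungs 1 to 3. The lungs at the ends of the Sftpc range were also at the ends of this ratio. Sftpc is its numerator and spanned 9.95 times, against 3.80 times for Ager, so this is not a separate observation.

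Of 16 tested airway markers, 13 had higher means in the anti-PD1 than in the PBS lungs and 3 in the nanocapsule than in the PBS lungs. Scgb1a1, the club cell secretoglobin, was more abundant than Sftpc in every lung, with 0.126 to 0.461 Sftpc transcripts for each Scgb1a1 transcript, and Scgb3a1, Scgb3a2 and Cbr2 spanned 53.0 to 351, 60.04 to 405 and 108 to 543 TPM over the 9 lungs. Of 17 tested pan-epithelial genes, 16 had higher means in the anti-PD1 than in the PBS lungs (median 0.46), 8 in the nanocapsule than in the PBS lungs (median -0.01) and 1 in the nanocapsule than in the anti-PD1 lungs (median -0.36). Epcam averaged 16.4, 21.2 and 14.5 TPM in the nanocapsule, anti-PD1 and PBS lungs, Krt19 48.9, 81.2 and 61.0 TPM and Spint2 56.2, 77.8 and 58.9 TPM. Limma called 0 genes of the type 1, airway and pan-epithelial lists in the 3 comparisons, and at an unadjusted p under 0.05 there were 6, 0 and 3 higher in the anti-PD1 than in the PBS lungs. For nanocapsule against PBS 1 type 1 gene was higher and 1 airway gene lower, and for nanocapsule against anti-PD1 1, 0 and 1 genes were higher and 8, 3 and 3 lower. Of all tested genes, 8.48% were higher in anti-PD1 against PBS, and 1.22% higher and 8.92% lower in nanocapsule against PBS. In nanocapsule against anti-PD1 6.69% were higher and 21% lower.

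Measured against the 17 pan-epithelial genes of the same lung, the surfactant protein genes kept most of their spread. Sftpc, as log2(TPM + 1) minus the mean log2(TPM + 1) of those genes, was at 8.44, 6.60 and 7.23 in nanocapsule lungs 1 to 3, 7.63, 7.03 and 8.17 in anti-PD1 lungs 1 to 3, and 6.72, 5.88 and 7.03 in PBS lungs 1 to 3. The difference between group means on this scale was 1.06 for anti-PD1 against PBS, 0.88 for nanocapsule against PBS and -0.19 for nanocapsule against anti-PD1. For Abca3 the same differences were -0.38, -0.08 and 0.30, and for Napsa -0.52, 0.05 and 0.56. The less abundant Slc34a2, Lamp3 and Nkx2-1 were at 0.78, 0.77 and 0.54 for anti-PD1 against PBS. Without the subtraction they were at 1.20, 1.18 and 0.96. Adding 1 TPM shrinks log2 differences of genes at a few TPM, so the subtraction does not match genes of unlike level. The part of epithelial content in the differences was not tested. The value of the pan-epithelial genes themselves was 3.23 ± 0.31 after the free antibody and 2.81 ± 0.24 after PBS (SD, n = 3 each).

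Capillary endothelial genes were at summed levels of 131 to 241 TPM in the nanocapsule, 379 to 581 TPM in the anti-PD1 and 122 to 264 TPM in the PBS lungs, and 20 of 20 had higher means in the anti-PD1 than in the PBS lungs (median 1.20). Cldn5, Car4, Egfl7 and Pecam1 spanned 5.11 to 66.0, 55.1 to 143, 6.98 to 67.5 and 12.2 to 44.4 TPM over the 9 lungs. Their index placed anti-PD1 lung 3 highest, at 1.25, and PBS lung 2 lowest, at -1.06. PBS lung 2 was also lowest by the index of the 10 surfactant and type 2 genes. Nanocapsule lung 1, highest by that index at 0.93 beside 0.91 in anti-PD1 lung 3, had an endothelial index of 0.07. Fibroblast and smooth muscle genes, 16 of 18 higher in the anti-PD1 than in the PBS lungs, summed to 287 to 328 TPM in the nanocapsule, 338 to 529 TPM in the anti-PD1 and 286 to 462 TPM in the PBS lungs. Among them Dcn, Fn1, Inmt and Col3a1 spanned 49.9 to 182, 81.8 to 138, 21.6 to 141 and 18.1 to 48.0 TPM. Limma called 0 genes of these 2 lists, and 18 endothelial and 9 fibroblast genes were higher at an unadjusted p under 0.05 in the anti-PD1 than in the PBS lungs, against 8.48% of all tested genes. In the nanocapsule against the anti-PD1 lungs 19 endothelial and 10 fibroblast genes were lower at that level, against 21% of all tested genes, and 0 of either list passed it in the nanocapsule against the PBS lungs.

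Neutrophil genes ran the other way in the anti-PD1 lungs, with 20 of 20 lower than in the PBS lungs by mean (median -0.64) and summed levels of 182475 to 206037 TPM in the nanocapsule, 119280 to 136012 TPM in the anti-PD1 and 142329 to 197949 TPM in the PBS lungs. At an unadjusted p under 0.05, 16 were lower, against 8.06% of all tested genes. S100a9, S100a8, Retnlg and Lcn2 led this list, and 4 of its genes were called higher by limma in the nanocapsule than in the anti-PD1 lungs, where 0.0679% of all tested genes were called higher. At an unadjusted p under 0.05, 17 of the 20 were higher in that comparison, against 6.69% of all tested genes. Rescaling TPM without S100a8 and S100a9 left the median over the 10 surfactant and type 2 genes at 1.17 for anti-PD1 against PBS, 0.66 for nanocapsule against PBS and -0.46 for nanocapsule against anti-PD1. These 2 genes took 10.3% to 17.5% of all TPM, so leaving them out could move a log2 difference only a little. The part of neutrophil content in the differences was not tested.

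The lungs also differed in transcripts from tissue beyond the alveoli. Haemoglobin genes, a measure of blood, were led by Hba-a2, Hbb-bs, Hba-a1 and Hbb-bt. Their index was highest in anti-PD1 lung 3, at 1.36, and next in nanocapsule lung 1, at 1.08, with PBS lung 2 lowest at -1.37. It was also low in nanocapsule lung 3, at -1.31, and PBS lung 3, at -1.05, which ranked 6 and 5 of the 9 lungs for Sftpc. Cardiac muscle genes were led by Myl4, Myl7, Tnni3 and Mybpc3. They summed to 10.2 to 35.3 TPM in the nanocapsule, 21.5 to 36.2 TPM in the anti-PD1 and 10.6 to 18.5 TPM in the PBS lungs. Nanocapsule lung 1 and anti-PD1 lung 3 both had a cardiac index of 0.57, and nanocapsule lung 3 followed at 0.44. Limma called 0 of the 5 haemoglobin and 8 cardiac genes tested. At an unadjusted p under 0.05, 4 and 3 were higher in the anti-PD1 than in the PBS lungs, against 8.48% of all tested genes. In the nanocapsule against the PBS lungs 0 and 4 were higher at that level, against 1.22% of all tested genes. B and T cell genes, led by Cd79a, Cd79b, Trac and Tcf7, summed to 474 to 560 TPM in the nanocapsule, 599 to 1382 TPM in the anti-PD1 and 641 to 1256 TPM in the PBS lungs. Of 12 markers of mammary carcinoma and basal epithelium, 9 were below 1 TPM in every lung, Krt6a, Csn3 and Wap among them at 0 throughout, and Lgals7, Wfdc18 and Sprr1a, which passed the filter, spanned 1.60 to 10.4, 0.959 to 4.63 and 0.112 to 1.42 TPM.

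**Figure D4:**
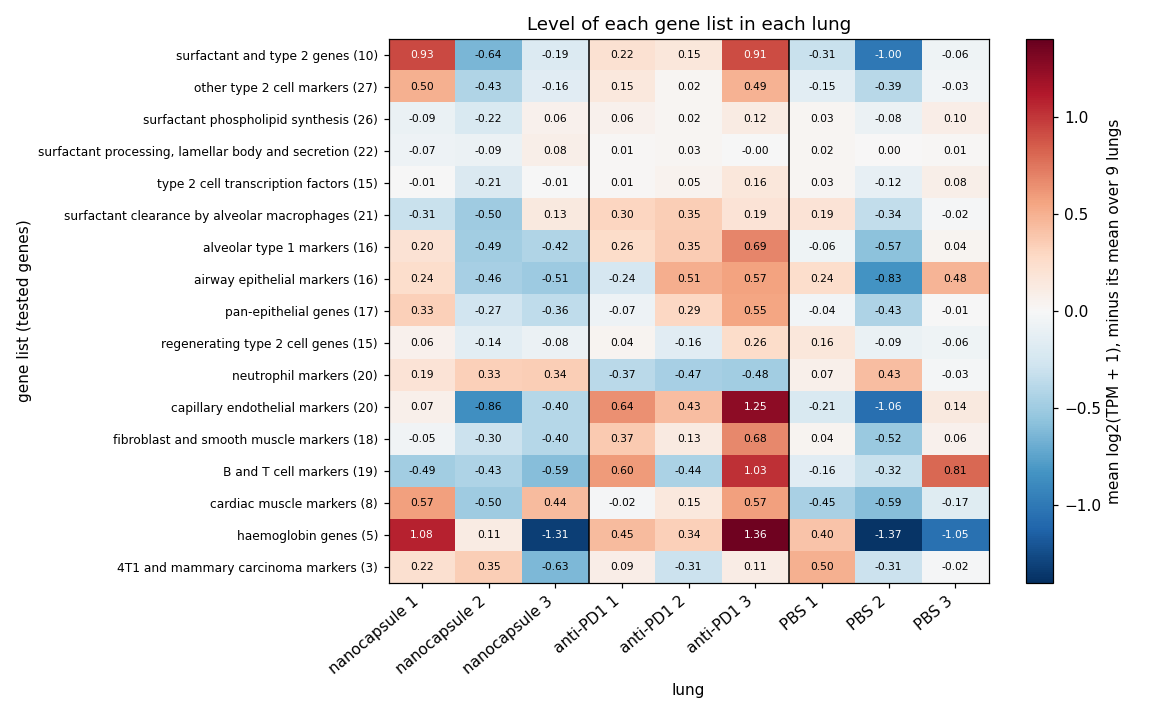
Index of each gene list in each lung, as mean log2(TPM + 1) of its tested genes minus the mean of the 9 lungs (colour and printed value), with the number of tested genes beside each list and lungs ordered nanocapsule, anti-PD1 and PBS. The surfactant and type 2 genes are high in nanocapsule lung 1 and anti-PD1 lung 3 and low in PBS lung 2, and the haemoglobin, cardiac muscle and pan-epithelial lists share those high lungs.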

How the data were processed

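RNA sequencing of 9 lungs was analysed, 3 for each of nanocapsule, anti-PD1 and PBS. Values were the deposited gene-level TPM, which the deposited table's name credits to salmon, scaled by the authors to the same sum in every column. The submitters' processing notes name DESeq2 and GRCm38, with no role or version, and filters before deposition are not given in the sources used here. The fit used log2(TPM + 1) of genes that reached 1 TPM in 3 or more lungs, and was made by limma (version 3.58.1, R version 4.3.3) with a trended variance and 1 spread shared by the groups, with 6 degrees of freedom left. P-values are two-sided, Benjamini-Hochberg adjusted over all 13248 tested genes, and genes were called under 0.05. The fit was also run on simulated data, with independent noise for each gene and changes in the nanocapsule group alone. That setting lacks the profile that the surfactant genes shared over the lungs, so it does not bear on them.

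The 10 genes, the other gene lists, the tests and the alternatives were chosen with earlier results of these data known. The naming rule took all 10 genes, the 4 most abundant tested genes of each other list, and the 10 genes most like the mean profile, passing over predicted genes, RIKEN clones and pseudogenes. Outside that rule Adgrf5 and Lyst were named after their values were seen. For the pan-epithelial list 1 gene that the rule names is not reported here. Lists have counts and medians with no set test. Positions come from GENCODE M21 on GRCm38 and promoters from RefSeq. Each result was recomputed under 18 alternatives.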

Additional observations from a re-analysis of the deposited data

How the results depend on the processing

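None of the 10 genes was called by limma in any comparison under any of the 18 alternatives, which together gave 540 values, and 18 of these changed sign. With median-of-ratios scaling Abca3 was at -0.0401 for anti-PD1 against PBS, 0.0938 for nanocapsule against PBS and 0.13 for nanocapsule against anti-PD1, and Lpcat1 was at 0.10 and 0.0052 in the last pair of comparisons. Without S100a8 and S100a9 Abca3 was at -0.0088, 0.0145 and 0.0233, and Lpcat1 at 0.0216 for nanocapsule against PBS. The cause was not tested. Over all alternatives Lpcat1 ranged from 0.07 to 0.28 for anti-PD1 against PBS and from -0.32 to 0.0052 for nanocapsule against anti-PD1. With single lungs left out, Abca3 ranged from -0.0016 to 0.0912, from -0.14 to 0.10 and from -0.17 to 0.0667 in the 3 comparisons, and for nanocapsule against PBS Lpcat1 ranged from -0.15 to 0.0774, Sftpb from -0.0374 to 1.18 and Slc34a2 from -0.0154 to 1.12. Both of these last were negative without nanocapsule lung 1.

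The number of genes called over the whole table was less stable than this result. For anti-PD1 against PBS it was 1, and 0 with a pseudocount of 0.1, median-of-ratios scaling, S100a8 and S100a9 left out, or no intensity trend (2026 to 2483 genes at an unadjusted p under 0.05), and 2 with a pseudocount of 5. For nanocapsule against PBS it was 1, 0 without the filter (1730 genes at an unadjusted p under 0.05), 2 with a pseudocount of 0.1 or no trend, 3 without mitochondrial, haemoglobin and immunoglobulin genes, and 4 with median-of-ratios scaling or without S100a8 and S100a9. For nanocapsule against anti-PD1 it was 14, 3 without the filter, 2 without the trend, 22 with median-of-ratios scaling, 71 without S100a8 and S100a9, 171 without mitochondrial, haemoglobin and immunoglobulin genes and 526 when only those groups were fitted. With single lungs left out the counts ranged from 0 to 3, 0 to 4 and 0 to 960, the last without PBS lung 2, beside 194 without PBS lung 3. At an unadjusted p under 0.05 the counts ranged from 1035 to 2514, 694 to 2126 and 2160 to 4105.

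With the replicate number as a block, limma called 1, 5 and 1095 genes in the 3 comparisons, and 0 of the 10 genes. Deviations of same-numbered lungs correlated at 0.06 to 0.28 for anti-PD1 against PBS, -0.14 to 0.14 for nanocapsule against PBS and -0.18 to 0.04 for nanocapsule against anti-PD1. Such values cannot decide whether the numbers pair the lungs, since deviations within a group of 3 sum to 0. The labels do not state a pairing. Every lung correlated best with its own number in the first comparison and not in the others, which is a hint from the data and not the design. An exact permutation test of 3 lungs against 3 cannot give a two-sided p below 0.1, and the depth behind genes of a few TPM, such as Nkx2-1 and Lamp3, is unknown.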
